A study of Homo sapiens with 2 samples.

Results

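Azurophil granules are the first granules made in the myeloid lineage, and they store the serine proteases, microbicidal proteins and hydrolases that neutrophils and monocytes release against microbes. The 10 genes described here were found by symbol among the 30856 rows of a gene expression table of THP-1 cells, and each symbol matched 1 row. CTSG, ELANE and PRTN3 encode the granule serine proteases cathepsin G, neutrophil elastase and proteinase 3, and AZU1 encodes azurocidin, their homologue without protease activity. MPO encodes myeloperoxidase, LYZ lysozyme, RNASE2 the eosinophil-derived neurotoxin (a ribonuclease), CPVL a serine carboxypeptidase, SLPI the secretory leukocyte protease inhibitor and DEFB1 the peptide beta-defensin 1. SLPI inhibits elastase and cathepsin G. In the gene ontology column of the table itself, 7 of the 10 genes carried the term azurophil granule lumen (the exceptions were CPVL, SLPI and DEFB1) and 3 carried the term specific granule lumen (ELANE, LYZ and SLPI).

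In granulocyte and monocyte precursors the granule proteins are made together, at the promyelocyte and promonocyte stages, and their transcripts decline as the cells mature. The transcription factors PU.1, C/EBP alpha, MYB and the RUNX1 and CBFB complex are known to drive these genes. The proteoglycan serglycin packs the basic proteases in the granule, and cathepsin C, another protease, activates them by removing an N-terminal dipeptide. Lysozyme is different in that macrophages also make it in quantity.

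THP-1 is a human acute monocytic leukaemia line. The study compared untreated parental cells with cells grown in stepwise increasing cytarabine (Ara-C, a nucleoside analogue used against acute myeloid leukaemia), from 5 nM to 10 µM, until they divided as fast as the untreated cells. The resistant cells were thus a population selected over time, and both groups were the same line in the same medium. Each group was 1 library of poly(A) RNA, with 57434972 counts for the parental culture and 58285463 for the resistant one, so no value has a replicate error and no test between conditions is possible. Of the monocytic markers, CD33 (11.1 FPKM in the resistant and 11.9 FPKM in the parental culture), CSF1R (7.74 and 12.2) and CD68 (29.2 and 31.6) were present, whereas CD14 stood at 0.03 and 0.50 FPKM. FPKM counts fragments per kilobase of transcript, scaled to the fragments mapped in the library.

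The 3 proteases and AZU1 are one family, and the coding sequence at the active site shows how the homologue differs. The windows below are 30 coding bases that begin at the same aligned codon in each gene (GENCODE release 29, GRCh38), with the codon of the active-site serine, or in AZU1 the codon aligned with it, in capitals.

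CTSG (chr14:24573781-24573810, minus strand): ggggatTCCggaggccccctgctgtgtaac

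ELANE (chr19:855958-855987, plus strand): ggggacTCCggcagccccttggtctgcaac

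PRTN3 (chr19:847799-847828, plus strand): ggagacTCAggtggccccctgatctgtgat

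AZU1 (chr19:831716-831745, plus strand): ggggacGGGggcacccccctcgtctgcgag

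TCC and TCA are codons for serine and GGG is a codon for glycine, so the aligned position of AZU1 holds no serine. Over all aligned coding bases, ELANE and PRTN3 were 70.8% identical, ELANE and AZU1 68.3%, ELANE and CTSG 69.3%, and AZU1 and CTSG 63.8%. The longest run of identical coding bases between 2 of the 4 genes was 25 bases, between ELANE and PRTN3. None of the 50-base words of their transcripts occurred in the transcript of another gene.

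The 4 protease family genes stayed among the most abundant transcripts in both libraries, and within them CTSG stood apart. CTSG (ENSG00000100448, chromosome 14, 24573518 to 24576250, minus strand) was at 306 FPKM in the resistant and 155 FPKM in the parental culture. That was 1.97-fold higher in resistant cells as a ratio of counts per library total, from 28373 against 14157 counts, with an exact 95% counting interval of 1.94 to 2.02. On the scale used for counting genes, log2 of the ratio of FPKM + 1, the difference was 0.97, just short of the 2-fold rule (log2 ratios from 1 upward or from -1 downward). CTSG moved from rank 173 to rank 85 by level among 11388 expressed genes, those with a symbol and at least 1 FPKM in 1 library or more. In a bulk sample such as these, the number of cells that make a transcript and the amount per cell cannot be told apart.

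The other 3 genes of the family lie side by side on chromosome 19 and differed little. ELANE (ENSG00000197561, 851014 to 856247, plus strand) was at 448 FPKM in the resistant and 359 FPKM in the parental culture, 1.25-fold higher (1.23 to 1.27). PRTN3 (ENSG00000196415, 840999 to 848175, plus strand) was at 299 and 331 FPKM, 0.905-fold (0.889 to 0.922). AZU1 (ENSG00000172232, 825097 to 832018, plus strand) was at 326 and 305 FPKM, 1.07-fold (1.06 to 1.09). These intervals cover counting error alone, which is small at these depths; the spread between cultures is unknown. ELANE was thus the highest of the 10 genes in both libraries, at rank 58 of the 11388 in resistant and rank 67 in parental cells.

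**Figure D1:**
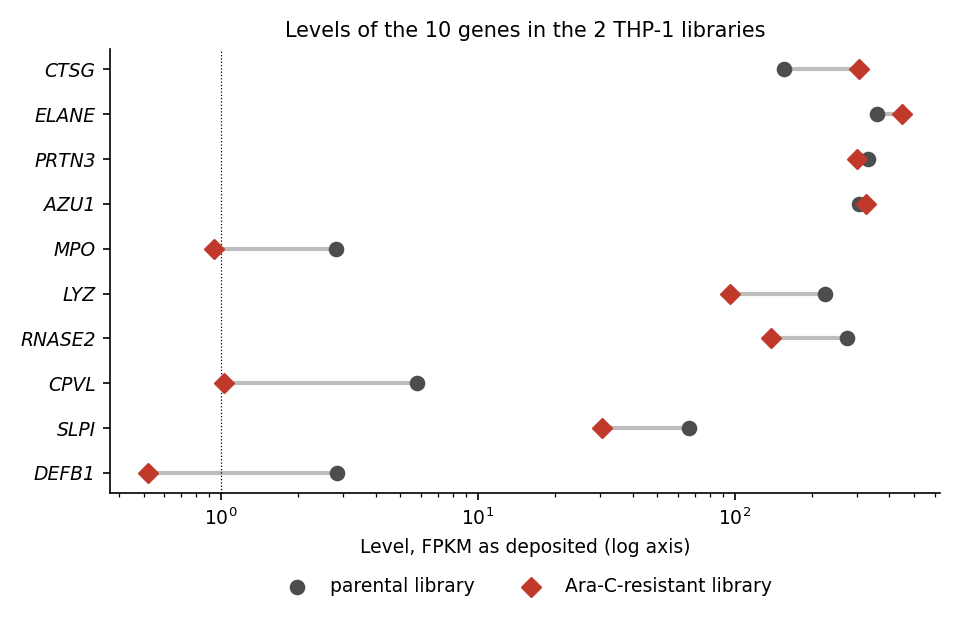
Level of each of the 10 genes in FPKM (horizontal log axis) in the parental library (grey circles) and the Ara-C-resistant library (red diamonds), with 1 library per group and the dotted line at 1 FPKM. ELANE, PRTN3 and AZU1 lie at 299 to 448 FPKM in both libraries, CTSG is farther right in resistant cells, and the 6 other genes are farther left.

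The balance of the 3 active proteases within a library differed between the cultures. CTSG was at 0.433 of the level of ELANE in parental cells and at 0.683 in resistant cells, both per length. Against PRTN3 the ratio was 0.469 in parental and 1.02 in resistant cells. In FPKM, CTSG thus went from the lowest of the 4 family genes to about the level of PRTN3 and AZU1. Summed over the 4 genes, the family took 0.173% of all counts in parental and 0.208% in resistant cells (1.20-fold, 1.19 to 1.21). The 3 genes of the chromosome 19 cluster alone gave 1.08-fold (1.07 to 1.09).

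A level per length depends on the length used. The counts and FPKM of AZU1 together imply a length of 2.07 kb, longer than its transcripts in GENCODE (908 to 1713 bases), against 1.19 kb for ELANE (920 to 1028 bases). The depth used was the sum of the deposited counts. An implied length above the longest transcript is not particular to AZU1. It held for all the members except DEFB1 (0.437 kb in parental cells, against 478 bases). In counts scaled to the library total (CPM), which ignore length, AZU1 was the highest of the family, at 675 in resistant and 631 in parental cells, with ELANE at 536 and 428. In CPM, CTSG was at 487 in resistant and 246 in parental cells, and PRTN3 at 385 and 426. On that scale CTSG in resistant cells was above PRTN3 and below AZU1, not level with them. The order of AZU1 and ELANE and the distance of CTSG from PRTN3 and AZU1 thus differ between the scales, whereas the ratios between libraries do not.

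The 6 other genes were all lower in resistant cells, in contrast to the protease family. Of the 10 genes, 4 were at least 2-fold lower (CPVL, DEFB1, LYZ and SLPI) and 0 at least 2-fold higher. Among the 11388 expressed genes 1.23% were lower by that rule and 0.641% higher. Log2 ratios were above 0 for 5277 of the 11388 and below 0 for 6065. Among the 1629 genes that reached 25 FPKM in 1 library or more, a level that 7 of the 10 genes passed, the shares were 0.675% and 0.491%. The median log2 ratio of the 10 genes was -0.97, and that of the 11388 genes -0.02 with an SD of 0.34 across genes. CTSG (0.97), MPO (-0.97) and RNASE2 (-0.97) were just short of the rule, and the members just past it were SLPI (-1.09) and LYZ (-1.22).

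LYZ, whose product cleaves the peptidoglycan of bacterial cell walls, had the largest drop in counts. LYZ (ENSG00000090382, chromosome 12, 69348381 to 69354234, plus strand) was at 95.8 FPKM in the resistant and 225 FPKM in the parental culture, from 11200 and 25862 counts. It was 2.34-fold lower (2.29 to 2.40) and moved from rank 119 to rank 282 by level. In parental cells LYZ was at 0.627 of the level of ELANE, and in resistant cells at 0.214. Of the 50-base words of its transcript, 9.79% also occurred in transcripts of other genes, and of the 100-base words 0%.

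RNASE2, a ribonuclease of eosinophil granules that is also found in monocytic cells, was at 139 FPKM in the resistant and 273 FPKM in the parental culture (ENSG00000169385, chromosome 14, 20955487 to 20956436, plus strand). It was 1.96-fold lower (1.90 to 2.01). Its close relative RNASE3, which encodes the eosinophil cationic protein, was at 3.09 and 5.67 FPKM, 0.545-fold (0.444 to 0.667). The level of RNASE2 was 45.0 times that of RNASE3 in resistant and 48.1 times in parental cells. The coding bases of both genes were 85.2% identical, with a longest shared transcript run of 67 bases. Of the 50-base words of RNASE2, 3.26% occurred in other transcripts, those of RNASE3 and of the clone-named gene AL355922.1. The RNASE3 level is therefore uncertain, since how reads with several matches were counted is not given in the sources used here.

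MPO makes hypochlorous acid from hydrogen peroxide and chloride, and it is the most abundant protein of neutrophil azurophil granules, but its transcript was scarce in both libraries. MPO (ENSG00000005381, chromosome 17, 58269855 to 58280935, minus strand) was at 0.94 FPKM in the resistant and 2.81 FPKM in the parental culture, from 226 and 662 counts. By counts it was 2.97-fold lower (2.55 to 3.47), while on the scale of FPKM + 1, where the added 1 weighs on a gene this low, it was 1.96-fold lower. The peroxidase was thus far below the proteases of the same granule, such as ELANE at 448 and 359 FPKM.

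CPVL, a carboxypeptidase of the endoplasmic reticulum and lysosomes of monocytes and macrophages, had the lowest ratio of the 10 genes. CPVL (ENSG00000106066, chromosome 7, 28995235 to 29195447, minus strand) was at 1.03 FPKM in the resistant and 5.82 FPKM in the parental culture, 5.65-fold lower (4.91 to 6.52), the 21st lowest ratio of the 11388 expressed genes. The related serine carboxypeptidases, a list of 2 genes, were both above 0 with 0 past the rule. CTSA, the protective protein of lysosomal sialidase, was at 14.9 and 13.6 FPKM, and SCPEP1 at 19.8 and 16.0 FPKM. CHN2, which overlaps CPVL on the opposite strand and was named after its value was seen, had 3 counts in resistant and 229 in parental cells, and CPVL-AS1 had 0 in both. Without a stated strand setting for counting, reads of CPVL and CHN2 where they overlap cannot be told apart.

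SLPI was lower in resistant cells while CTSG and ELANE, which encode the proteases named above as inhibited by it, were not. SLPI (ENSG00000124107, chromosome 20, 45252239 to 45254564, minus strand) was at 30.5 FPKM in the resistant and 66.1 FPKM in the parental culture, from 1231 and 2628 counts, 2.17-fold lower (2.02 to 2.32). The summed level of CTSG, ELANE and PRTN3 was 12.8 times that of SLPI in parental and 34.6 times in resistant cells. This sum includes PRTN3, whose product is not among the proteases named above as inhibited by SLPI. For CTSG alone the ratio to SLPI was 2.35 in parental and 10.0 in resistant cells, and for ELANE alone it was 5.43 and 14.7. These are ratios of transcripts within a library and say nothing of protein.

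DEFB1, an antimicrobial peptide made mainly by epithelia, was the rarest of the 10 genes in resistant cells. DEFB1 (ENSG00000164825, chromosome 8, 6870592 to 6877936, minus strand) had 14 counts in resistant and 71 in parental cells, 0.52 and 2.83 FPKM. It was 5.15-fold lower, with a wide counting interval of 2.88 to 9.89. GS1-24F4, which overlaps it on the opposite strand, had 0 and 7 counts.

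**Figure D2:**
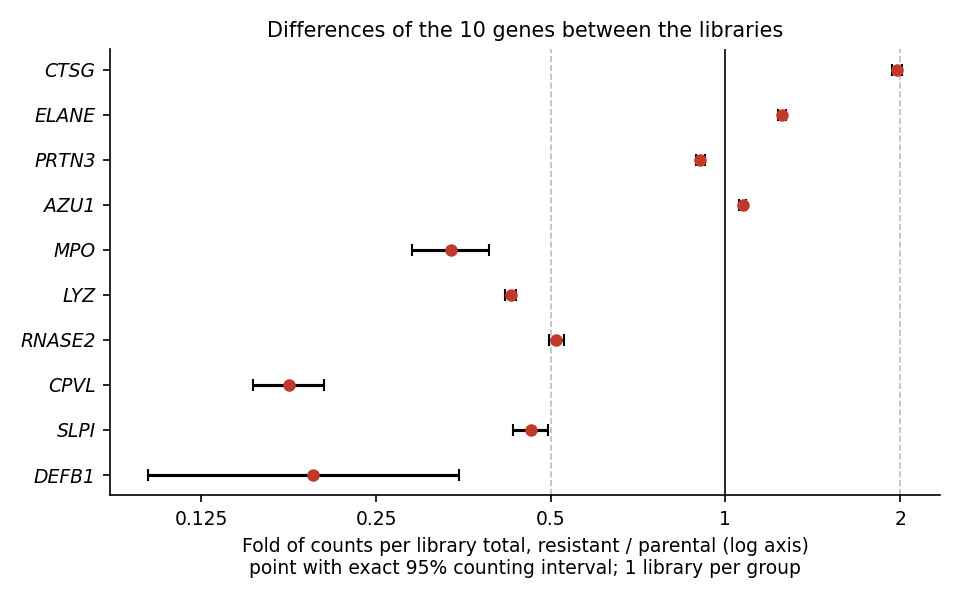
Fold of counts per library total in resistant over parental cells for each of the 10 genes (points, horizontal log axis) with the exact 95% counting interval (bars), and dashed lines at 2-fold in either direction. CTSG lies at 1.97, ELANE, AZU1 and PRTN3 lie between 0.905 and 1.25, and the 6 other genes lie between 0.177 and 0.511.

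Added over all 10 genes, the protease family and the 6 other genes nearly cancelled. The 6 other genes together took 0.0759% of all counts in parental and 0.0338% in resistant cells, 0.445-fold (0.438 to 0.453). The 10 genes together took 0.249% and 0.242%, 0.972-fold (0.965 to 0.980).

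**Figure D3:**
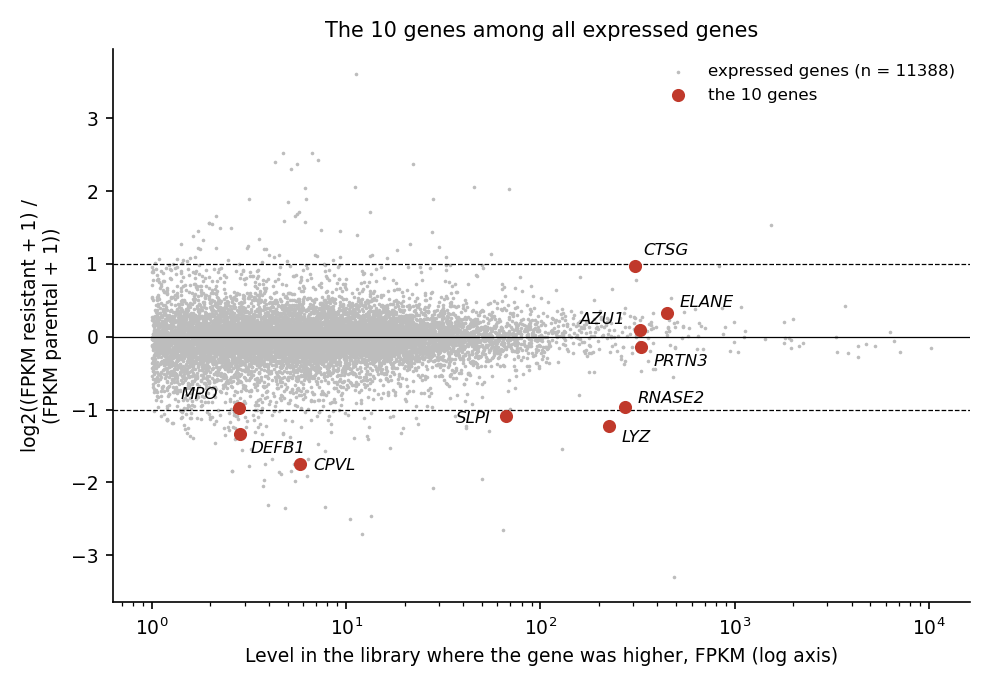
Log2 ratio of FPKM + 1, resistant over parental (vertical axis), against the level in the library where the gene was higher, in FPKM (horizontal log axis), for the 11388 expressed genes (grey) and the 10 genes (red), with dashed lines at 2-fold. CTSG sits just under the upper line, RNASE2 and MPO just above the lower line, and LYZ, SLPI, DEFB1 and CPVL below it.

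Genes that lie together had ratios of both signs. In the chromosome 19 stretch, AZU1, PRTN3 and ELANE had log2 ratios of 0.09, -0.15 and 0.32, and CFD, which encodes the serine protease complement factor D and starts 8.65 kb beyond the start of ELANE, had 0.82 (78.6 FPKM in the resistant and 44.1 FPKM in the parental culture). CFD was named after its value was seen. The 3 nearest expressed genes on each side of every member, at any distance, gave 48 genes that are not members. Their starts lay up to 6301 kb from that of the member, there beside CTSG. On the scale of FPKM + 1, 1 of the 48 was past the rule upward and 0 downward, with a median log2 ratio of -0.10. The gene past the rule was SEMG1, which encodes the seminal protein semenogelin 1 and lies 45.2 kb from SLPI between starts, at 2.82 FPKM in the resistant and 0.91 FPKM in the parental culture, the opposite direction to SLPI. By counts, without the added 1, several neighbours of at most 3.71 FPKM were also past 2-fold downward. SCRN1, FKBP14 and MTURN, all on one side of CPVL, were 2.87-, 2.52- and 2.08-fold lower. NDRG2 near RNASE2 was 2.30-fold and PRELID2P1 near LYZ 2.17-fold lower, while SEMG1 was 3.10-fold higher. These lower genes were named after their values were seen. Around RNASE2, a transcript that the table names by a sequenced clone (AL355922, chromosome 14, starting at 20919361) was at 9.81 and 20.5 FPKM. AL355922.1, a gene named from that clone, shares 50-base words with RNASE2. If it is this row, the level is uncertain for the same reason as that of RNASE3. METTL17 was at 15.3 and 18.4 FPKM and NDRG2 at 1.54 and 3.59, and all 3 were named after their values were seen. Next to MPO, its relative LPO, the lactoperoxidase gene, was at 0.16 and 0.18 FPKM.

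**Figure D4:**
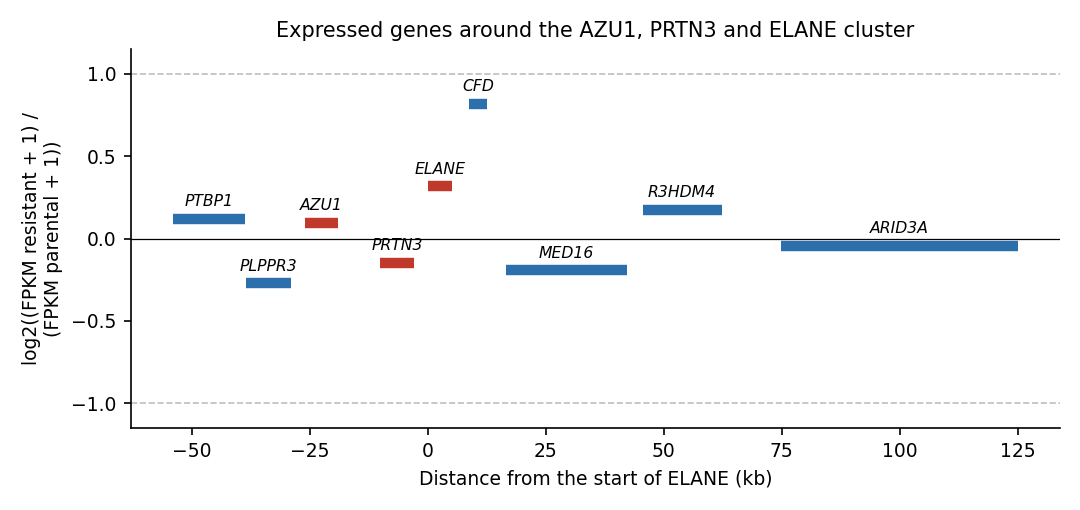
Log2 ratio of FPKM + 1, resistant over parental (vertical axis), of the expressed genes around the chromosome 19 cluster, drawn from start to end as distance from the start of ELANE in kb (horizontal axis), with the members in red and dashed lines at 2-fold. AZU1, PRTN3 and ELANE lie between -0.15 and 0.32, and CFD lies at 0.82.

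The sequence just upstream was compared for the genes with an entry in the RefSeq promoter table (GRCh38.p14), 5 of the 10 genes. The 250 bases before the start are shown for CTSG, higher in resistant cells, for PRTN3 and AZU1, which differed little, and for RNASE2, lower in resistant cells. The start is that of the RefSeq entry. For AZU1 it lies inside the gene span given above, 825097 to 832018. Capitals mark GAGGAA, the core bound by PU.1, and TTNNGNAA, a form of the C/EBP site, on either strand.

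CTSG (chr14:24576251-24576500, minus strand): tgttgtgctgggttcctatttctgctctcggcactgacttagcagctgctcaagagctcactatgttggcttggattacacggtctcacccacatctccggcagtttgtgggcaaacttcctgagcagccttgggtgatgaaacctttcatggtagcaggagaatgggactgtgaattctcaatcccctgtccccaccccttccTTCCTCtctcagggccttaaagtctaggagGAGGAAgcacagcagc

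PRTN3 (chr19:840749-840998, plus strand): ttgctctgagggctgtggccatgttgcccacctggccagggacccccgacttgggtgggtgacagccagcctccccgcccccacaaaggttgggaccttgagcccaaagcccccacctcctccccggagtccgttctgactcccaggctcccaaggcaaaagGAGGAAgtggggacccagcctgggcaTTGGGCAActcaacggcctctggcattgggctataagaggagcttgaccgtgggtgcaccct

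AZU1 (chr19:827587-827836, plus strand): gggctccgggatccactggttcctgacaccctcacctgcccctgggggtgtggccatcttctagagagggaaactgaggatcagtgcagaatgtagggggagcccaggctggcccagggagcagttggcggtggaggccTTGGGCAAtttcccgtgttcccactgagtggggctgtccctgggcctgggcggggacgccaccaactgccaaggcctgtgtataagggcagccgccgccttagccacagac

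RNASE2 (chr14:20955237-20955486, plus strand): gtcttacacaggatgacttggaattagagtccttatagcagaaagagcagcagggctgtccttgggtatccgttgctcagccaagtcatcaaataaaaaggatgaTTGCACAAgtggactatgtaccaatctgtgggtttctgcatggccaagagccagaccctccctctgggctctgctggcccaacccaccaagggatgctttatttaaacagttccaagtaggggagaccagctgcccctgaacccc

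GAGGAA occurred 2 times in the window of CTSG, 16 to 11 bases before the start and, on the opposite strand, 46 to 41 bases before it. In PRTN3 it occurred once, 88 to 83 bases before the start, and in AZU1 and RNASE2 it was not in the window. Of all 35116 promoters in the table, 23.6% hold it in the same 250 bases. PRTN3 and AZU1 hold the same C/EBP-type letters, TTGGGCAA, at 62 to 55 and 111 to 104 bases before the start, and in RNASE2 the match is on the opposite strand (TTGCACAA as printed), 145 to 138 bases before it. TTNNGNAA was in 33.2% of all promoters and not in the window of CTSG. The RUNX core TGTGGT (11.0% of promoters) and the letters TATAAA (10.7%) were in none of the 4 windows, and the short MYB core AACNG, present in 70.6% of promoters and in each of the 4 windows, is not marked and overlaps no marked match. CPVL, the gene with the lowest ratio, has 3 promoters in the table, which are not printed. Its first holds 2 matches of TTNNGNAA that overlap each other, 194 to 187 and 193 to 186 bases before the start. Its second holds GAGGAA on the opposite strand, 11 to 6 bases before the start and sharing 1 base with a MYB core, and TTNNGNAA 170 to 163 bases before it. The remaining one holds none of the 5 motifs. GAGGAA was thus found upstream of CTSG, which was higher, of PRTN3, little different, and of CPVL, lower, there in its second promoter alone. For that promoter, the bases just after the start were found near the start of no GENCODE transcript of the gene. These matches describe letters and show no binding.

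The expressed transcription factors listed for granule genes, activators and repressors together, were at similar levels or slightly higher, and LEF1, under 1 FPKM in both cultures, was lower. Of the 9 expressed genes of a list of 12 such factors, 0 were past the rule, and 7 were above 0 (median log2 ratio 0.13). MYB was at 129 FPKM in the resistant and 98.4 FPKM in the parental culture (1.31-fold, 1.29 to 1.33). GFI1, a transcriptional repressor that acts in the granulocyte lineage and represses ELANE among other genes, was at 49.4 and 38.5 (1.28-fold, 1.26 to 1.31). SPI1, which encodes PU.1, was at 62.3 and 64.4 FPKM and CEBPA at 141 and 139. RUNX1 was at 13.8 and 11.6 FPKM, its partner CBFB at 31.7 and 29.8, ETV6 at 7.16 and 5.74, CEBPB at 6.83 and 6.18, and CEBPD at 26.5 and 28.7. The other 3 factors were below 1 FPKM in both cultures. LEF1, a factor of the Wnt pathway that is needed for granulocyte development, was at 0.18 FPKM with resistance against 0.76, 4.10-fold lower by counts (3.14 to 5.43). CEBPE, the factor of the later specific granules, was at 0.15 against 0.33 FPKM (16 and 35 counts, 0.450-fold, 0.233 to 0.836), and KLF5 at 0.95 against 0.86.

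The remaining proteins of the azurophil granule were mostly at similar levels, and the packing proteoglycan was the only one past the rule. Of 18 listed genes, 14 were in the table and 13 expressed, 1 was past the rule upward, 0 downward, 9 were above 0, and the median log2 ratio was 0.18. SRGN, which encodes serglycin, was at 1538 FPKM in the resistant and 531 FPKM in the parental culture, 2.91-fold higher (2.87 to 2.94). Relative to SRGN, ELANE went from 0.676 of its level in parental to 0.291 in resistant cells, and CTSG from 0.292 to 0.199. CST7, which encodes cystatin F, an inhibitor of cathepsin C, was at 5.13 and 2.13 FPKM (2.41-fold by counts, 1.96 to 2.99), and CTSC, which encodes cathepsin C itself, was at 16.4 and 12.6 (1.30-fold, 1.27 to 1.34). PRSS57, another granule serine protease, was low in both libraries at 1.07 and 0.42 FPKM (80 and 31 counts, 2.54-fold by counts, 1.66 to 3.98). CST7 and PRSS57 were thus past 2-fold by counts, though not on the scale of FPKM + 1.

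Of the lysosomal enzymes among these proteins, GAA, the acid glucosidase, was at 9.85 FPKM with resistance against 14.5 in the parental culture, and MAN2B1, a mannosidase, at 24.95 against 33.5. GUSB was at 19.1 and 18.0, NPC2 at 11.2 and 8.35, and the granule membrane protein CD63 at 70.6 and 75.0. VAMP8, RAB27A and UNC13D, which act in granule release, were at 155 and 137, 19.9 and 18.9, and 5.17 and 3.79 FPKM. BPI, another bactericidal protein of this granule, was at 0.07 and 0.03 FPKM.

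In the table's own annotation, the other genes of the granule were spread on both sides of 0 (36 above and 33 below in the lumen). Of 69 expressed genes with the term azurophil granule lumen that are not members, 2 were past the rule upward and 0 downward, and the median log2 ratio was 0.01. The higher genes were VAT1 (30.0 FPKM in the resistant and 12.2 FPKM in the parental culture) and C3, complement component 3 (5.57 and 1.05). Of 47 such genes with the term azurophil granule membrane, 0 were past the rule (median -0.02).

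Few of the listed genes of the later granules were expressed, and CHI3L1 and CYBA were the highest of them. Of 18 listed specific and gelatinase granule genes, 4 were expressed, with 0 past the rule and a median log2 ratio of 0.44. CHI3L1, a chitinase-like protein, was at 310 FPKM in the resistant and 181 FPKM in the parental culture (1.72-fold, 1.70 to 1.74), CYBB, the catalytic subunit of the NADPH oxidase, at 3.49 and 1.57, its partner CYBA at 56.5 and 52.6, and CAMP, the cathelicidin, at 0.99 and 1.42. MMP8 and MMP9 had 0 counts in either library. By annotation term the later granules held more expressed genes. Of 37 expressed genes with the term specific granule lumen that are not members, 1 was past the rule upward and 0 downward (median 0.05). Of 34 such genes with the term tertiary granule lumen, 1 was past the rule upward and 0 downward (median 0.04).

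The other protease inhibitors had ratios on both sides of 0, and none was past the rule downward. Of 17 listed inhibitors, 9 were expressed, with 3 above 0 and 6 below, beside 5277 and 6065 of all 11388 expressed genes. Past the rule were 1 upward and 0 downward. The median log2 ratio was -0.14, and -0.003 with a minimum of 5 FPKM. SERPINB10, a clade B serpin, was at 7.67 FPKM in the resistant and 3.32 FPKM in the parental culture (2.31-fold, 2.10 to 2.55). SERPINB1, an inhibitor of elastase, cathepsin G and proteinase 3 inside the cell, was at 8.02 and 8.04 FPKM. SERPINB8 was at 21.0 and 30.8, SERPINB6 at 1.51 and 1.98, SERPINB2 at 6.86 and 5.65, and SPINT1 at 1.49 and 1.75. The cysteine protease inhibitors CST3, CSTA and CSTB were at 22.2 and 29.2, 41.7 and 40.6, and 10.4 and 11.8 FPKM. PI3, which encodes elafin, the closest relative of SLPI in function, had 0 counts in both libraries, and WFDC2, another gene of the same protein family, had 0 and 4.

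The ribonuclease relatives of RNASE2 were scarce: of 12 listed genes of the family and its inhibitor, 7 were in the table and 1, the inhibitor, was expressed. RNASE3, counted in the eosinophil list instead, was also expressed, at 3.09 FPKM in the resistant and 5.67 FPKM in the parental culture. RNASE6 was at 0.44 and 0.82 FPKM, RNASE4 at 0.00 and 0.27, and RNASE1 at 0.05 and 0.17, in resistant and parental cells. The intracellular ribonuclease inhibitor RNH1 was at 30.5 and 24.2 FPKM (1.26-fold, 1.23 to 1.29). Among 17 genes of granule protein sorting and haem supply, 16 were expressed, 0 past the rule, with a median log2 ratio of -0.01, a sign that flips with median-centring, upper-quartile scaling or a minimum of 25 FPKM. Of these, LYST, whose loss gives giant granules, was at 41.9 and 31.3 FPKM, GNPTAB at 2.39 and 1.55, and HPS4 at 4.51 and 5.91.

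**Figure D5:**
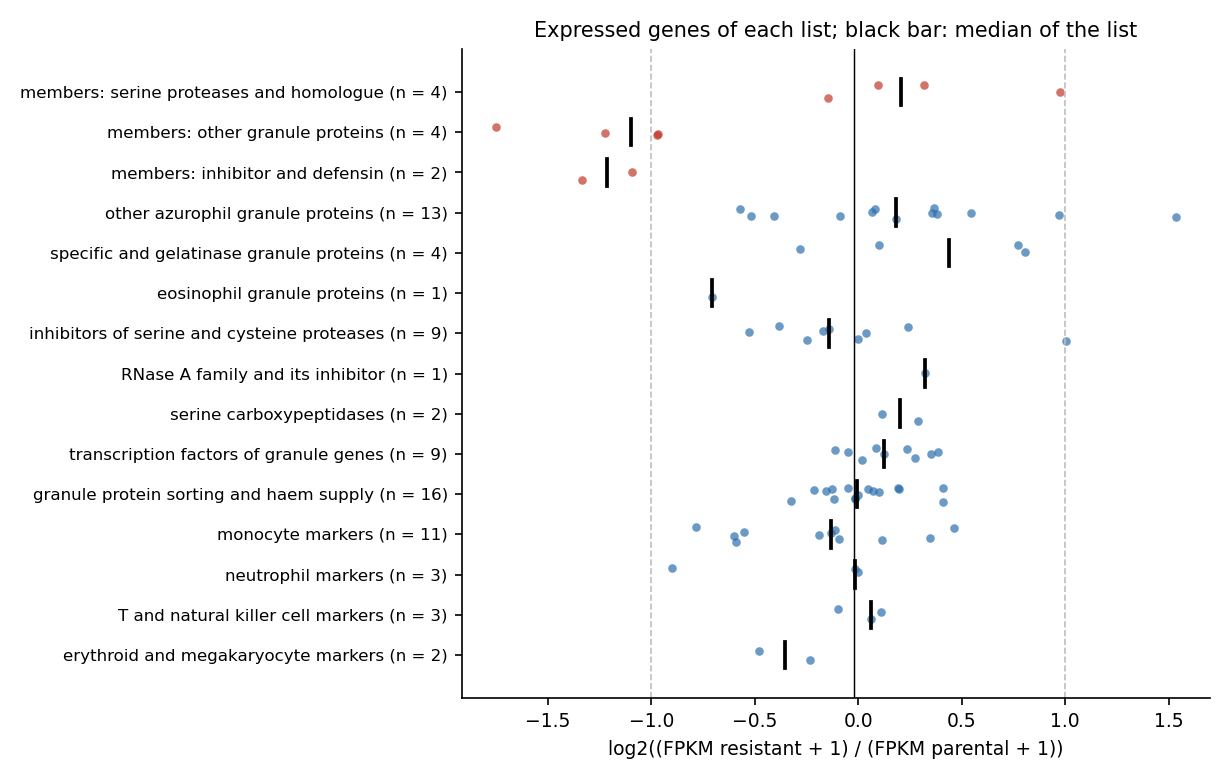
Log2 ratio of FPKM + 1, resistant over parental (horizontal axis), of each expressed gene (points) by list, with black bars at the list medians, the thin line at the median of all expressed genes and dashed lines at 2-fold. The 4 protease family members have a median of 0.21, and the inhibitor and the defensin one of -1.21. The 4 members labelled other granule proteins (MPO, LYZ, RNASE2 and CPVL) have one of -1.10, though CPVL carries no granule lumen term. The other lists of more than 1 gene lie between -0.36 and 0.44.

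Monocyte markers had ratios of both signs. Of 17 listed markers, 11 were expressed, 0 were past the rule, 8 were below 0, and the median log2 ratio was -0.13 (0.12 with a minimum of 25 FPKM). KLF4, a transcription factor of monocyte differentiation, was at 3.12 FPKM in the resistant and 6.09 FPKM in the parental culture, CX3CR1 at 3.28 and 5.49, and CSF1R, CCR2 (32.5 and 48.0) and CD14 were also lower, whereas FCGR1A was at 41.2 and 29.6 and CD4 at 28.3 and 22.0. The part of maturation state in the levels of LYZ, CPVL and RNASE2 was not tested.

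Markers of other blood cells were few. The neutrophil list summed to 15.5 FPKM in the resistant and 16.9 FPKM in the parental culture (6 of 8 genes in the table, 3 expressed, all below 0, 0 past the rule), with CSF3R at 10.1 and 10.1, CXCR2 at 4.70 and 4.76 and S100A12 at 0.58 and 1.95. The eosinophil list summed to 3.19 and 6.07 FPKM (3 of 5 in the table), nearly all of it RNASE3, while PRG2 had 7 and 41 counts and EPX 9 and 13. Granzymes, perforin and mast cell proteases summed to 0.27 and 0.18 FPKM over 8 of 11 genes, with GZMA, GZMM, PRF1 and GNLY at 0 counts in both libraries. T and natural killer markers summed to 18.7 and 18.9 FPKM, of which NKG7 gave 10.5 and 11.3, NCAM1 5.98 and 5.47 and IL7R 1.87 and 1.75, with CD8A at 0 counts in both. B and plasma cell markers summed to 1.10 and 1.05 FPKM, and the erythroid and megakaryocyte list to 2.24 and 3.30, with EPOR at 1.51 and 1.95, GP1BA at 0.60 and 1.23 and KLF1 at 0 counts in both.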

How the data were processed

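The submitters' processing notes name the build GRCh38 and, in no stated role, edgeR, DESeq2, StringTie 1.3.4d, HISAT2 2.0.4 and cutadapt 1.9. The authors deposited FPKM values with 2 decimals, normalised to length and depth, and raw counts, not normalised, for 1 library per group. The deposited counts and FPKM gave the same log2 ratios over 10656 genes to within a constant (median difference -0.004, SD 0.003). The suffix on the resistant count column is not explained by the labels. The annotation release, strand setting and treatment of reads with several matches are not given in the sources used here.

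Genes with clone names were left out. Of 22880 rows with a symbol, 11388 reached 1 FPKM in 1 library or more. The measure was log2 of the ratio of FPKM + 1, and the size rule was 2-fold. Folds in the text with an interval are counts per library total with exact Clopper-Pearson 95% intervals, which treat read pairs as independent molecules and cover counting error only. Each gene with 0 counts could have up to 3. The counting intervals and the size rule were tested on simulated counts with counting error alone, and the motif search on a made-up sequence. The other steps were not tested in this way.

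The 10 genes, the 17 gene lists and the size rule were chosen with earlier results of these data known; the annotation terms of the table, the 25 FPKM background and the ratios between genes were added after the data were seen. Named genes were the 10 members, every expressed gene of the lists of azurophil granule proteins, inhibitors, ribonucleases, carboxypeptidases and transcription factors, in the remaining lists the 3 genes whose absolute log2 ratio was largest, and neighbours past the rule. A few listed genes are not reported here by name. Other genes named, such as unexpressed list genes, were chosen after their values were seen. Coding identity is over aligned bases of 1 GENCODE release 29 transcript per gene (Biopython 1.88, global alignment), and 50- and 100-base words were compared on the sense strand. Protein sequences were not used here. Computation was in Python 3.11.15 (scipy 1.17.1, pandas 2.3.3, numpy 2.4.6), with plots by matplotlib 3.10.9. Alternatives covered the pseudocount, the filter, scaling, counts in place of FPKM and the size rule.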

Additional observations from a re-analysis of the deposited data

How the results depend on the processing

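All 10 genes kept the sign of their log2 ratio under every alternative that kept them, and LYZ and SLPI stayed at least 2-fold lower in each. Filters dropped the low genes from some, so MPO and DEFB1 had 6 alternatives and CPVL 7, against 8 for each other gene. The median of the 10 genes ranged from -1.04 to -0.15; the alternative nearest 0, a minimum of 25 FPKM added after the data were seen, leaves out the 3 low genes MPO, CPVL and DEFB1. At least 2-fold lower were 2 of the 10 genes with a pseudocount of 5 FPKM and 2 with the minimum of 25 FPKM, against 4; they were 5 with a pseudocount of 0.1 FPKM, where MPO (-1.48) joined, and 6 with the 1.5-fold size rule, by which 1 gene (CTSG) counted as higher, against 0. With CPM they were again 4, but MPO (-1.36) was past the rule and DEFB1 (-0.85) was not. A minimum of 5 FPKM, which leaves out MPO and DEFB1, gave 3. Over all genes, the counts higher and lower were 73 and 140. They became 226 and 366 with a pseudocount of 0.1 FPKM, 14 and 16 with 5 FPKM, 36 and 53 with a minimum of 5 FPKM, 8 and 11 with 25 FPKM, 112 and 263 with CPM in place of FPKM, and 334 and 543 with the 1.5-fold rule. Of 114 list medians under alternatives, 108 kept their sign. No paired analysis was possible because each group has 1 library, and no library could be left out. Depth limits DEFB1 most, with 14 counts in resistant cells.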
